A study of Drosophila melanogaster with 4 samples.

Results

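The genes for subunits of the mitochondrial respiratory chain and of ATP synthase were followed in *poly* mutant larvae. They were taken by symbol (ND-, UQCR-, COX with a digit, ATPsyn, *RFeSP*, *Cyt-c1*, *Cyt-c-p* and *Cyt-c-d*), and 65 of the 11907 genes with a named probe qualified. Complex I gave 31 of them, complex III 7, complex IV 14 and complex V 13. Of 87 genes that the rule takes in RefSeq, 22 had no named probe and are not analysed here, among them *Cyt-c-p* and *Cyt-c-d* for cytochrome c, *UQCR-C1* and *UQCR-C2* of complex III, *ATPsyndelta*, the complex I genes *ND-23*, *ND-24*, *ND-30* and *ND-49*, and 3 genes of the mitochondrial genome.

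RNA of *poly* mutants was set against that of wild-type larvae within each of 4 arrays, each a separate biological replicate. The mutants are labelled as carrying the P-element allele poly05137 over the balancer TM6B, and the wild-type as Canton S. Both are recorded as whole larvae of Canton S background, and both were collected early in the last larval instar. The mutant group therefore stands for 1 insertion allele, and no source used here says whether the larvae collected were homozygous for it. Every value is the log2 ratio of *poly* over wild-type, so −1 means that the mutant signal was 1 doubling lower. The mutant RNA was the Cy5 channel of replicates 1 and 2 and the Cy3 channel of replicates 3 and 4. The probe for *poly* itself (listed as *Elp6*) read −1.49, −1.57, −1.69 and −1.79 on replicates 1 to 4, below 0 on each array.

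Complex I takes electrons from NADH and complex III passes them from ubiquinone to cytochrome c. Complex IV gives them to oxygen, and the proton gradient that the 3 complexes build drives ATP synthase, complex V. Most subunits are encoded in the nucleus and are made in every tissue, most of all in muscle. In *Drosophila* a number of these genes also have a duplicate, marked by an L at the end of the symbol, and many duplicates are used mainly in testis. Among the 65 genes there were 16 duplicates and 49 others, here called ordinary subunits.

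One gene of the 65 was called. *ND-PDSW*, for an accessory subunit of the membrane arm of complex I, rose in *poly* mutants about 4.03-fold. None of the 65 was called lower. The samples were whole larvae, in which fewer cells of a tissue and less RNA per cell cannot be told apart. Most ordinary subunits instead sat a little below 0: 38 of 49 had a mean ratio below 0, and their median was −0.25, against a median of 0.04 over all named genes. That shift came mostly from replicate 3, and without it the median was −0.07 over the ordinary subunits and −0.03 over all named genes. Complex IV had the highest share of ordinary subunits below 0 on all 4 arrays.

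**Figure D1:**
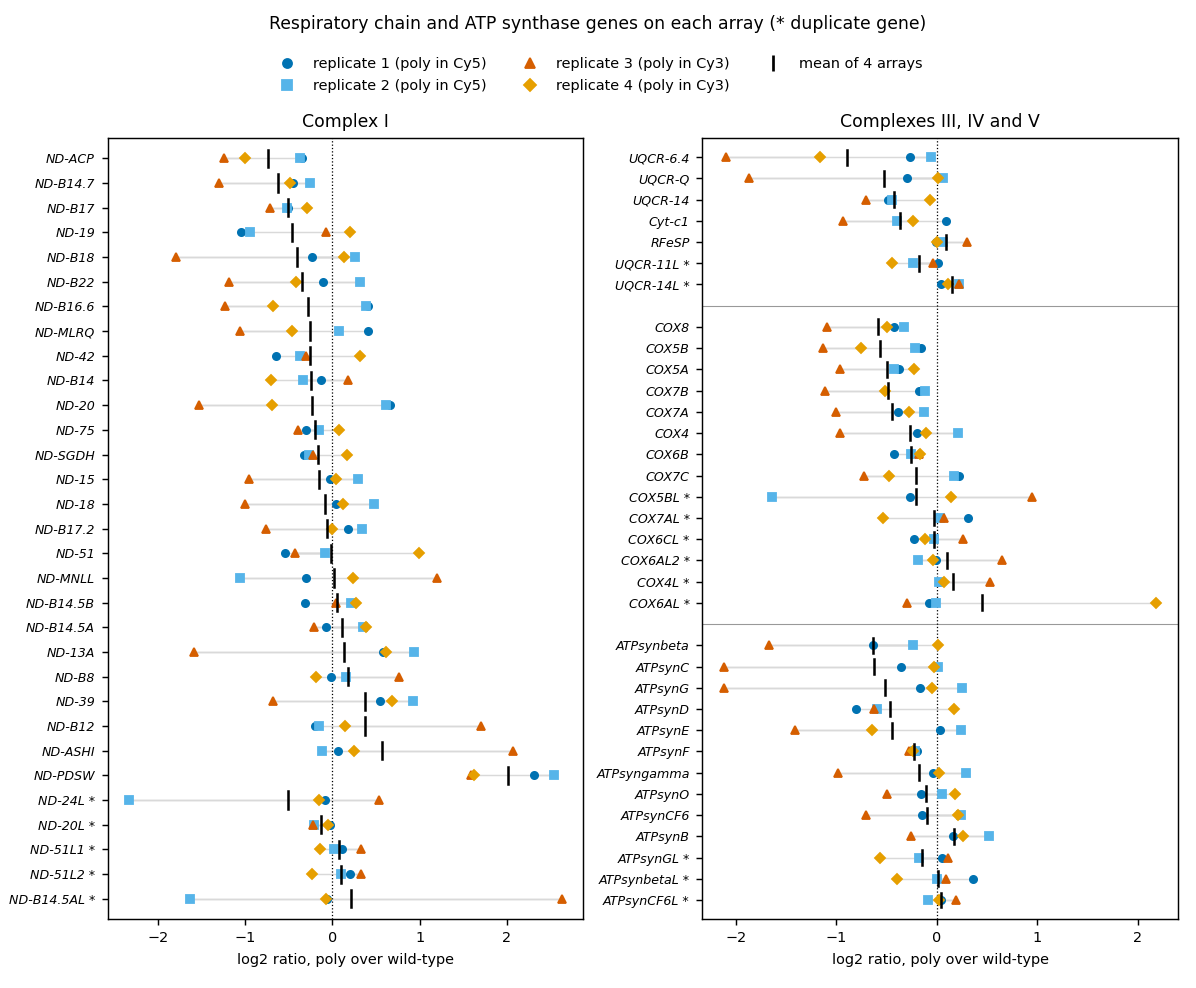
Log2 ratio of *poly* over wild-type (x axis) for each of the 65 genes (rows; duplicate genes carry an asterisk), with 1 symbol per array and a black bar at the mean of the 4 arrays. *ND-PDSW* is the only gene whose 4 values all lie far above 0, between 1.59 and 2.53, and on replicate 3 (triangles) many ordinary subunits lie far to the left of their other values.

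The test was limma on the 4 ratios of each probe, two-sided. P-values were adjusted by Benjamini–Hochberg across the whole set of 14569 probes, and a gene was called at an adjusted p under 0.05. Over all named genes it called 1.25% lower and 1.42% higher, so 1 of 65 genes called higher (1.54%) is near the background. At an unadjusted p under 0.05, 8 of the 65 were lower (12.3%) and 2 were higher (3.08%). Over all named genes these shares were 8.9% and 8.1%. The 8 were *ATPsynbeta*, *COX5A*, *COX5B*, *COX8*, *ND-ACP*, *ND-B14.7*, *ND-B17* and *UQCR-14*, and the smallest adjusted p among them was 0.113, for *ND-B17*.

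*ND-PDSW* (CG8844) is the fly counterpart of human NDUFB10. Its ratios were 2.30, 2.53, 1.59 and 1.62, in the order of replicates 1 to 4 used throughout, and averaged 2.01 ± 0.48 (SD, n = 4; adjusted p = 0.0256 from limma; 95% interval 1.47 to 2.55). All 4 values were well above 0, and the pair with *poly* in Cy5 was higher than the pair with *poly* in Cy3. Its mean was the 41st highest of the 11907 genes, and the next highest of the 65 was 0.56, for *ND-ASHI*. The call was lost with the arrays scaled to 1 spread (2.09, adjusted p = 0.0688) and without replicate 1, 2 or 4 (1.91, 1.84 and 2.14, with adjusted p = 0.16, 0.111 and 0.123), and without these replicates no gene of the whole array was called.

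Next to *ND-PDSW* in the RefSeq gene order, *msl-2*, for a subunit of the dosage compensation complex, had ratios of 0.88, 1.29, 0.70 and 0.54 (mean 0.85 ± 0.32, SD, n = 4; adjusted p = 0.0743 from limma). *Pif1*, on the other side, read 0.11, −0.10, 0.30 and −0.15. The labelling kept no strand and the position of the probes is not known here, and whether signals of adjoining transcripts mix was not tested.

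**Figure D2:**
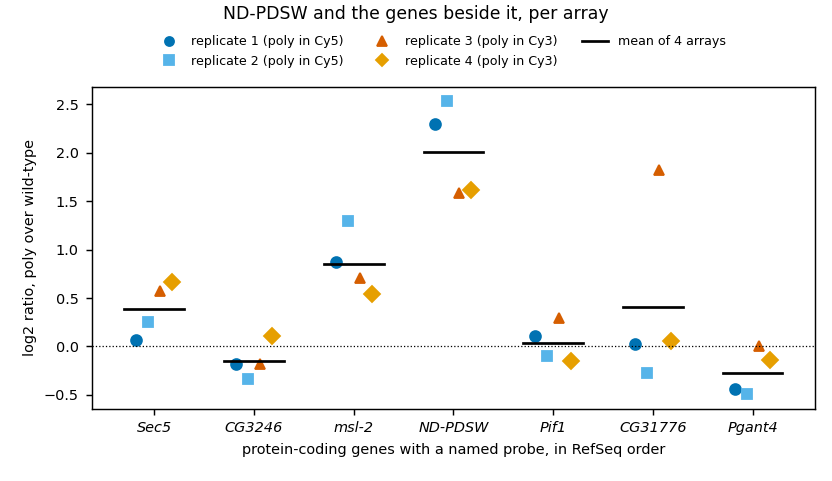
Log2 ratio of *poly* over wild-type (y axis) for *ND-PDSW* and the 3 protein-coding genes with a named probe on either side of it in RefSeq order (x axis), with 1 symbol per array and a bar at the mean. *msl-2* is above 0 on all 4 arrays, between 0.54 and 1.29, and below *ND-PDSW* on each.

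The mean ratios of the other 25 ordinary complex I subunits ran from −0.74 to 0.56. Their complex has a matrix arm, which holds the flavin and the iron–sulphur clusters, and a membrane arm, which pumps protons. The core subunits that were measured all lie in the matrix arm. *ND-75*, which carries iron–sulphur clusters, read −0.30, −0.16, −0.40 and 0.08, a mean of −0.20 ± 0.21 (SD, n = 4; adjusted p = 0.562). *ND-51*, which binds the flavin that accepts electrons from NADH, read −0.54, −0.08, −0.43 and 0.99, and *ND-20*, near the ubiquinone site, read 0.66, 0.61, −1.52 and −0.69. None of these 3 core subunits kept 1 sign over the arrays, and *ND-20* was positive on both arrays with *poly* in Cy5 and negative on both with *poly* in Cy3.

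The subunits of complex I nearest to a call were all accessory. *ND-ACP*, the mitochondrial acyl carrier protein, which also serves fatty acid synthesis in the organelle, read −0.35, −0.37, −1.24 and −1.01 (mean −0.74 ± 0.45, adjusted p = 0.158 from limma). *ND-B14.7*, the counterpart of human NDUFA11, read −0.45, −0.26, −1.30 and −0.48 (mean −0.62 ± 0.46, adjusted p = 0.226). *ND-B17*, the counterpart of human NDUFB6, read −0.51, −0.52, −0.72 and −0.29 (mean −0.51 ± 0.18). These were the 3 ordinary complex I subunits of 26 below 0 on all 4 arrays (11.5%, against 11.9% of all named genes), and *ND-PDSW* was the only one above 0 on all 4, which 14.8% of all named genes were. At the other end, *ND-ASHI*, a membrane arm subunit, read 0.06, −0.12, 2.07 and 0.25, so its mean of 0.56 ± 1.01 came from replicate 3.

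Both arms held positive and negative ratios. The 10 measured genes of the matrix arm had medians of 0.01, 0.34, −0.56 and 0.10 on replicates 1 to 4. The 14 of the membrane arm had −0.26, −0.13, −0.26 and 0.16. Neither arm was lower on all 4 arrays. *ND-ACP*, which sits in both, and *ND-MLRQ*, whose human counterpart NDUFA4 is now placed in complex IV, were left out of this split. *ND-13A* and *ND-39*, both of the matrix arm, had positive ratios on replicates 1, 2 and 4 (0.58, 0.93 and 0.62 for *ND-13A*, 0.55, 0.93 and 0.68 for *ND-39*) and −1.59 and −0.69 on replicate 3.

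In complex III the ordinary subunits had a median of −0.42 (5 genes), or −0.18 without replicate 3, and none was called. *UQCR-14*, the counterpart of human UQCRB, read −0.48, −0.44, −0.71 and −0.06, a mean of −0.42 ± 0.27 (SD, n = 4; adjusted p = 0.233 from limma). *UQCR-6.4*, a small membrane subunit, read −0.26, −0.06, −2.09 and −1.16, the lowest mean of the 65 genes at −0.89 ± 0.93 (adjusted p = 0.351). Both were below 0 on each array, and the size of the *UQCR-6.4* ratio rested on the arrays with *poly* in Cy3.

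The catalytic subunits of complex III with a probe were *Cyt-c1*, for the haem protein that hands electrons to cytochrome c, and *RFeSP*, for the Rieske iron–sulphur protein. *Cyt-c1* read 0.09, −0.39, −0.93 and −0.23 (mean −0.37 ± 0.43, adjusted p = 0.466 from limma). *RFeSP* read −0.005, 0.06, 0.31 and 0.004 (mean 0.09 ± 0.15, adjusted p = 0.779). *UQCR-Q*, near 0 on replicates 2 and 4 (0.06 and 0.01), read −0.29 and −1.87 on replicates 1 and 3.

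Complex IV had 8 ordinary subunits with a probe, and all 8 had a mean ratio below 0, where 42.9% of all named genes did. So did 9 of 10 ordinary subunits in complex V, 4 of 5 in complex III and 17 of 26 in complex I. For *COX7C*, 1 of the 8, the mean is over 2 probes, with means of 0.007 and −0.41. Of the 8, 6 were below 0 on all 4 arrays (75%), against 11.9% of all named genes. The 6 were *COX5A*, *COX5B*, *COX6B*, *COX7A*, *COX7B* and *COX8*. Over the 3 arrays other than replicate 3 they were 6 of 8 again, against 21.6% of all named genes. With replicates 1, 2 and 4 left out in turn they were 6, 7 and 6 of 8, against 14.8%, 13.8% and 15.9% of all named genes. None of the 8 was called. Their median was −0.46, and −0.28 without replicate 3.

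*COX8* read −0.42, −0.32, −1.09 and −0.49, a mean of −0.58 ± 0.35 (SD, n = 4; adjusted p = 0.173 from limma). *COX5A*, the counterpart of a matrix-side subunit, read −0.38, −0.43, −0.96 and −0.22 (mean −0.50 ± 0.32, adjusted p = 0.213). *COX5B*, which binds zinc, read −0.15, −0.22, −1.14 and −0.75 (mean −0.56 ± 0.47, adjusted p = 0.276). Replicate 3 was the lowest array for each of these 3 genes, and the other arrays lay below 0 as well. *COX6B*, on the side facing the intermembrane space, was the steadiest, with −0.43, −0.26, −0.18 and −0.16.

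The largest nuclear-encoded subunit of complex IV was less even. *COX4* read −0.19, 0.21, −0.97 and −0.11 (mean −0.27 ± 0.50, adjusted p = 0.668 from limma). The probes for *COX7C* disagreed, one reading 0.12, −0.006, 0.05 and −0.14 and the other 0.31, 0.36, −1.51 and −0.81. Genes whose symbols escape the rule but whose proteins belong here were *levy*, the subunit 6A, with 0.20 on replicate 2 and 0.54 on replicate 4 beside −0.39 and −1.26 on replicates 1 and 3, and *cype*, the subunit 6C, with −0.007, 0.43, −1.33 and −0.22. Neither was below 0 on all 4 arrays.

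ATP synthase has a catalytic head, a rotor and a stalk that holds the head still. *ATPsynbeta*, the catalytic subunit, had 2 probes. One read −0.65, −0.17, −2.04 and 0.40 and the other −0.62, −0.30, −1.30 and −0.38, and the second had an adjusted p of 0.208 from limma with a mean of −0.65 ± 0.45 (SD, n = 4). The probes differed in sign on replicate 4. *blw*, for the alpha subunit of the same head, is not taken by the symbol rule and read −1.37, −1.01, −1.30 and 0.11 (mean −0.89 ± 0.69, adjusted p = 0.218), also with the positive value on replicate 4. In all, 6 subunits outside the rule were measured, in more than 1 complex, and 0 were called. Besides *blw*, *levy* and *cype* they were *sun*, *ox* and *Cyt-c1L*, the last by its symbol a duplicate of *Cyt-c1* of complex III. *sun* was above 0 on each array, with 0.25, 0.49, 0.13 and 0.09. *ox* read −0.65, 0.19, −0.99 and 0.30. *Cyt-c1L* read 0.26, 0.0006, 0.25 and −0.36.

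The rotor genes *ATPsyngamma*, for the central shaft, and *ATPsynC*, for the membrane ring, were near 0 on most arrays and low on replicate 3. *ATPsyngamma* read −0.04, 0.29, −0.98 and 0.02 (mean −0.18 ± 0.56, adjusted p = 0.81 from limma). *ATPsynC* read −0.35, 0.02, −2.12 and −0.02 (mean −0.62 ± 1.01, adjusted p = 0.582). *ATPsynF*, of the membrane part, differed from them in that its 4 values lay close together, at −0.19, −0.21, −0.28 and −0.24 (mean −0.23 ± 0.04, adjusted p = 0.339; 95% interval −0.47 to 0.01). It was the only complex V gene of 10 ordinary ones below 0 on all 4 arrays (10%, near the 11.9% of all named genes).

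For the stalk, the probes of *ATPsynO* and *ATPsynB* disagreed. *ATPsynO* read 0.13, −0.09, 0.37 and 0.04 on one probe and −0.45, 0.19, −1.35 and 0.32 on the other. *ATPsynB* read 0.12, 0.72, −1.42 and 0.29 on one and 0.20, 0.31, 0.91 and 0.24 on the other. On replicate 3 the probes of each gene had opposite signs, so neither gene has a settled direction on that array. Those of *ATPsynO* also had opposite signs on replicates 1 and 2. *ATPsynD*, also of the stalk, read −0.81, −0.59, −0.63 and 0.17.

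Set side by side, the ordinary subunits of complex IV had the lowest median on each of the 4 arrays, at −0.29, −0.17, −0.98 and −0.37 on replicates 1 to 4. Those of complex III came next on each array, at −0.26, −0.06, −0.93 and −0.06. Complex I had medians of −0.12, 0.12, −0.56 and 0.12, and complex V had −0.16, 0.15, −0.85 and 0.02. Complexes I and V were thus on either side of 0 outside replicate 3, while III and IV were below 0 throughout. Over all named genes the medians were −0.007, −0.047, 0.157 and 0.012, so on replicate 2 complex III (5 genes) was near that background. The gap of complex I over complex IV was 0.17, 0.29, 0.43 and 0.50. The genes of a complex are not replicates, so this order carries no test. With duplicates included, complex IV was lowest on 3 arrays and complex III on 1, replicate 3.

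**Figure D3:**
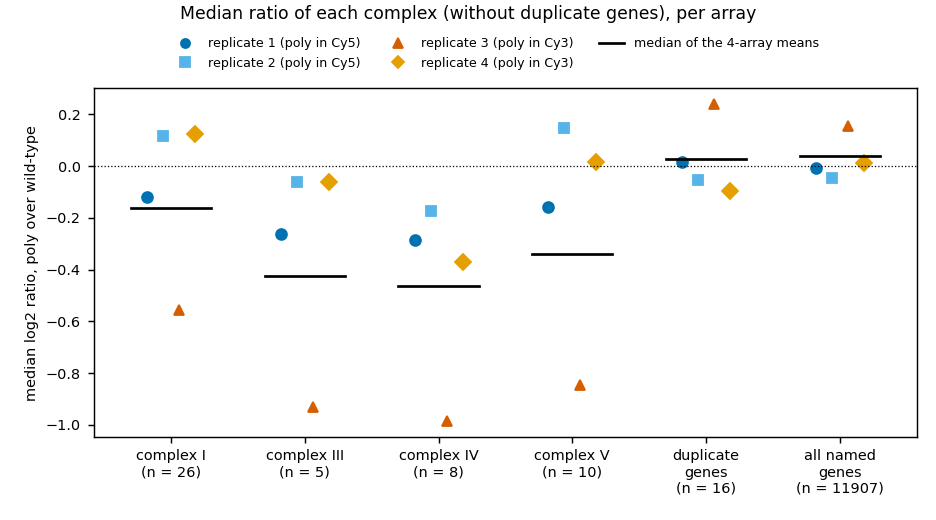
Median log2 ratio of *poly* over wild-type (y axis) on each array for the ordinary subunits of each complex, for the 16 duplicate genes and for all 11907 named genes, with a bar at the median of the 4-array means. Complex IV is lowest on every array, replicate 3 (triangles) is far below the other arrays for every complex, and it is the highest array for the duplicates and for all named genes.

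Replicate 3 stood apart. Its median over all probes was 0.146 (−0.037 to 0.007 on the other 3 arrays) and its median absolute deviation 0.519 (0.297 to 0.381 on the others). Over all probes it correlated with the other arrays at a Pearson r of −0.183 to 0.299, against 0.385 to 0.619 among those 3. It was the lowest of the 4 arrays for 36 of the 49 ordinary subunits (73.5%), against 23.5% of all named genes. For complex V it was the lowest for 9 of 10. The ratios hold no signal level, so whether this moved with brightness was not tested.

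The low values of replicate 3 were not shared by most duplicates, of which 2 of 16 were lowest there (12.5%, against 23.5% of all named genes) and 10 highest (62.5%, against 46.2%). Their median was 0.02, −0.05, 0.24 and −0.10 on replicates 1 to 4, against −0.17, 0.02, −0.76 and −0.01 for ordinary subunits. For 11 duplicates an ordinary gene with the same symbol, without the L ending, was measured too. The duplicate read higher in 11 of 11 of these pairs on replicate 3. It did so in 9, 5 and 4 of 11 on replicates 1, 2 and 4. *ND-51L1* and *ND-51L2* share *ND-51* in this count. *COX6AL*, *COX6AL2* and *COX6CL* are not in it, because the ordinary genes, *levy* and *cype*, have other names. Without replicate 3 the medians were −0.07 for the duplicates and −0.07 for the ordinary subunits.

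**Figure D4:**
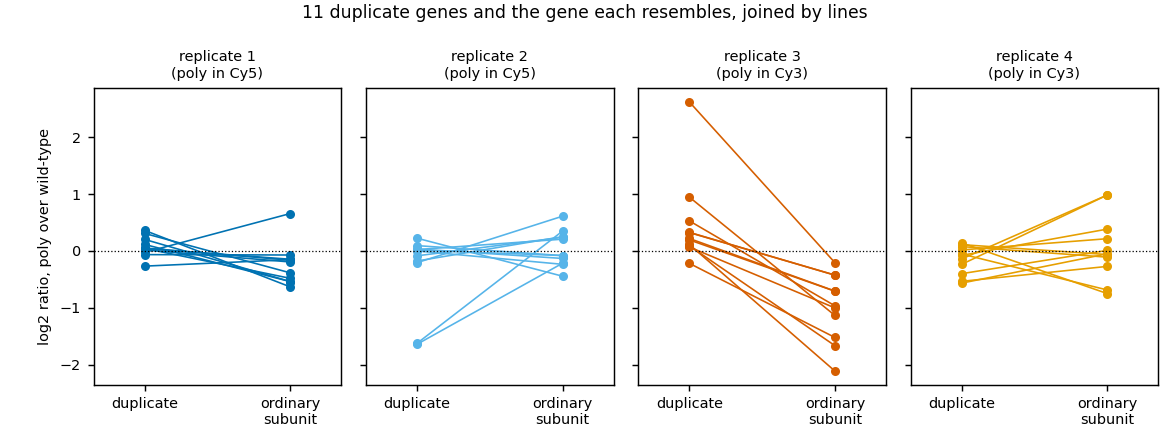
Log2 ratio of *poly* over wild-type (y axis) for 11 duplicate genes (left of each panel) and the ordinary gene each is named after (right), 1 panel per array, each pair joined by a line. All 11 lines run down from duplicate to ordinary subunit on replicate 3, and they run both ways on the other arrays.

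None of the 16 duplicates was called, and none had an unadjusted p under 0.05. *COX4L* read 0.02, 0.02, 0.53 and 0.08, and *ATPsynCF6L* read 0.04, −0.09, 0.20 and 0.02. *UQCR-14L* was above 0 on each array, with 0.05, 0.23, 0.22 and 0.11 (mean 0.15 ± 0.09, adjusted p = 0.585 from limma). Its ordinary gene *UQCR-14* was below 0 on each. *UQCR-14L* and *COX4L* were the 2 of 16 duplicates above 0 on all 4 arrays, which 14.8% of all named genes were. Of 22 listed testis genes, such as *can*, *aly* and *twe*, 13 were measured and 0 were called by limma (0 also had an unadjusted p under 0.05). Their medians were 0.03, 0.03, 0.19 and −0.22 on replicates 1 to 4. All named genes, with −0.007, −0.047, 0.157 and 0.012, also had their highest median on replicate 3.

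Genes of related roles were compared in the same fit, and 0 of those in the lists for complex II, assembly factors and regulators were called by limma (at an unadjusted p under 0.05, 1 higher in complex II, 3 lower among 11 assembly factors, and 1 lower and 1 higher among 10 regulators, where 8.9% of all named genes were lower and 8.1% higher). Of 8 listed genes of complex II, the succinate dehydrogenase, 6 were measured, with a median of 0.07. Of these, 3 are duplicates (*SdhAL*, *SdhBL* and *SdhCL*, with means of 0.34, 0.18 and 0.08), and *SdhAL* is the 1 with an unadjusted p under 0.05. The ordinary genes *SdhB*, *SdhC* and *SdhD* had means of 0.06, −0.16 and 0.06. *SdhB*, the iron–sulphur subunit, read −0.26, 0.14, −0.18 and 0.56, and *SdhC*, a membrane anchor, read −0.34, −0.009, −0.56 and 0.28. Of 26 assembly factors 11 were measured, with a median of −0.17, and 3 were below 0 on all 4 arrays (27.3%, against 11.9% of all named genes). The genes of these longer lists that are named were picked after their values were seen. *OXA1L*, of the family that inserts proteins into the inner membrane, read −0.60, −0.90, −0.48 and −0.29 (mean −0.57 ± 0.26, adjusted p = 0.126 from limma). *Cchl*, which attaches haem to cytochrome c, read −1.07, −1.02, −0.71 and 0.09.

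Among 10 measured regulators of mitochondrial genes the values went both ways, and 0 were called. *TFAM*, which packages mitochondrial DNA and starts its transcription, read −0.39, −0.74, −0.43 and −0.48 (mean −0.51 ± 0.16, adjusted p = 0.104 from limma). *mTTF*, a transcription termination factor, read 0.40, 0.43, 0.76 and 0.55 (mean 0.54 ± 0.16, adjusted p = 0.0966). Each had 1 sign on all 4 arrays. Of 5 listed genes for mitochondrial carriers and porin, 3 were measured and 0 were called by limma. At an unadjusted p under 0.05, 1 of the 3 was lower, where 8.9% of all named genes were. *Mpcp1* read −1.45, −0.93, −2.01 and 0.18. *Mpcp2* read −0.30, 0.04, −0.88 and 0.40, and *porin* read 0.67, 0.43, −0.59 and −0.07.

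Genes of muscle, a tissue rich in mitochondria, had negative medians too. Of 19 listed muscle genes 13 were measured (*Mhc* and *Act57B* not among them), and 8 of the 13 were below 0 on all 4 arrays (61.5%, against 11.9% of all named genes). Their medians were −0.44, −0.31, −1.20 and −0.26, lower than those of ordinary subunits on each array, and 0 were called (8 lower and 0 higher at an unadjusted p under 0.05, where 8.9% of all named genes were lower). The list was not uniform. Of its troponin C genes, *TpnC73F* read −0.97, −0.60, −1.41 and −0.73, the lowest mean of the list, and *TpnC41C* read −0.02, −0.44, 2.70 and −0.12. *Mlc2* and *Act87E* had means of 0.08 and 0.01. The 9 measured fat body genes went both ways, with medians of −0.78, −0.08, −1.42 and −0.18. Of their means 6 were below 0, and 3 genes were below 0 on all 4 arrays (33.3%, against 11.9% of all named genes). At an unadjusted p under 0.05 by limma, 3 were lower and 1 higher, where 8.9% and 8.1% of all named genes were. *FASN1* and *Mtp* had means of −0.90 and −0.98. *Adh*, *apolpp* and *Lsd-2* had means of −0.39, −0.42 and −0.06. *Lsd-1*, for a lipid droplet protein, was called lower (mean −1.24 ± 0.31, adjusted p = 0.0332 from limma), where 1.25% of all named genes were. That call was lost with a dye term (adjusted p = 0.0652) and without replicate 1, 2 or 4 (0.203, 0.178 and 0.116). *Fbp2* read −0.13, 3.62, 3.19 and 3.43 (mean 2.52 ± 1.78, adjusted p = 0.169), and *Lsp2* and *Fbp1* had means of 0.65 and 0.64 with values of both signs. The part of muscle or fat body in the ratios of the respiratory genes was not tested.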

How the data were processed

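The authors read spot signals of 2-colour long-oligonucleotide arrays in Dapple, normalized by vsn, and deposited 1 log2 ratio per probe and array (14569 probes, 0 missing). How background was corrected, which spots were dropped and how vsn was set: not given in the sources used here. With no intensities, signal over background is unknown. The number of arrays limits the precision. For labelling, 500 ng of cDNA from 5 µg of total RNA was used and strand was not kept. All columns were read as *poly* over wild-type, since the *poly* probe was negative on each array with the dyes reversed on 2 of them.

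Gene names came from the platform's annotation in GEO and were brought up to date by RefSeq (GCF_000001215.4, names and gene order only). Of the probes, 12657 had 1 symbol, 96 several, 1 none, and 1815 are unnamed here. Each probe was tested against 0 with limma (lmFit, eBayes; 4.97 degrees of freedom). A gene counted as called if a probe passed and none passed the other way. A gene's ratio is the mean of its probes (4 members have 2), and p is that of the probe with the smallest p. A duplicate is a symbol ending in L or in L and a digit, except *ND-MNLL*, named for its first residues. Members and lists were chosen with earlier results of these data known. The places of complex I subunits were assigned after the values were seen.

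The naming rule took called genes, in each complex the 2 lowest and 2 highest means and the 3 smallest p, core and catalytic subunits, and lists of 6 or fewer. Other genes with values per array were chosen after their values were seen. Alternatives were a dye term, median centring, scaled arrays, 1 value per gene, array weights, a robust prior, a minimum ratio of 0.5 in size, 1 probe per gene, each replicate left out and medians without duplicates. The fit was tested on simulated ratios whose spread was the same on every array. The real arrays differ in spread, which the simulation did not cover. Tests ran in limma 3.58.1 under R 4.3.3, and summaries and figures in Python 3.11.15 (matplotlib 3.10.9, numpy 2.4.6, pandas 2.3.3).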

Additional observations from a re-analysis of the deposited data

Results flagged for a closer look

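In 8 cases 1 array lay far from the other 3, by the gap to its nearest neighbour relative to the whole range (Dixon's criterion, which chance meets in about 1 of 20 groups). The median over the 7 complex III genes was −0.71 on replicate 3, and between −0.06 and −0.005 on the others. *COX4L* read 0.53 on replicate 3, and between 0.02 and 0.08 on the others. *ND-ASHI* read 2.07 on replicate 3, and between −0.12 and 0.25 on the others. *COX6AL*, a duplicate of the 6A subunit, read 2.19 on replicate 4, and between −0.30 and −0.006 on the others. Its mean of 0.45 ± 1.16 (SD, n = 4; adjusted p = 0.74 from limma), the highest in complex IV, therefore came from 1 array. *ND-13A* read −1.59 on replicate 3, and between 0.58 and 0.93 on the others. The second probe of *ATPsynB* read 0.91 on replicate 3, and between 0.20 and 0.31 on the others. Outside the 65 genes, *TpnC41C* read 2.70 on replicate 3, and between −0.44 and −0.02 on the others, and *Fbp2* read −0.13 on replicate 1, and between 3.19 and 3.62 on the others. Of the 65 genes, 4 met the criterion.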

How the results depend on the processing

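*ND-PDSW* was called with a dye term, with median centring, with 1 value per gene, with array weights, with a robust prior and without replicate 3, and 0 genes of the 65 were called higher with scaled arrays. With each replicate left out in turn between 0 and 1 were called higher and 0 lower. At an unadjusted p under 0.05 by limma, 4, 7, 6 and 7 of the 65 were lower without replicates 1, 2, 3 and 4. Over all 11907 named genes these counts were 702, 688, 1163 and 930. In the same order 1, 1, 3 and 1 of the 65 were higher, and 641, 602, 1153 and 705 of all named genes. With array weights 1 of the 65 was called lower, *ND-B17* (−0.50, adjusted p = 0.0288 from limma). That fit leans on replicates 1 and 2 (weights 2.10 and 2.44, against 0.289 and 0.675). Over all named genes 149 were called lower and 169 higher. These calls were 65 and 96 with a dye term, 639 and 622 with array weights, and 134 and 83 with scaled arrays. Without replicate 1, 2 or 4 they were 0 and 0. The median of complex IV was −0.23 and, without its duplicates, −0.46. Without replicate 3 the median of complex I was −0.003 in place of −0.13, that of complex V −0.01 in place of −0.18, that of complex III −0.18 in place of −0.37, that of complex IV −0.19 in place of −0.23 and that of all 65 genes −0.07 in place of −0.18. For ordinary subunits the medians without replicate 3 were 0.02 (complex I), −0.18 (III), −0.28 (IV) and −0.05 (V), in place of −0.16, −0.42, −0.46 and −0.34. With array weights complex I had −0.02, as all named genes did. The number of ordinary subunits below 0 on every array was 12, and 13, 16, 13 and 19 of 49 without replicates 1, 2, 3 and 4, where 14.8%, 13.8%, 21.6% and 15.9% of all named genes were; the 13 without replicate 3 are 26.5%. The median of the duplicates, 0.03, was −0.07 without replicate 3 and −0.03 with array weights; this, the values for ordinary subunits and those of genes outside the 65 were added after seeing the data. Of those outside genes, *Elp6* lost its call without replicate 1, 2 or 4 (adjusted p = 0.117, 0.0979 and 0.0972) and *Lsd-1* in those settings and with a dye term, while *msl-2*, *blw*, *OXA1L*, *Cchl*, *TFAM*, *mTTF* and *TpnC73F* were called with array weights only. The other 63 of the 65 genes were called under none of the settings. The test of the ratios against 0 is itself a paired analysis, because each ratio pairs both genotypes within 1 array. The causes of these shifts were not tested, and ratios without signal levels set no limit on dim probes.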

Other observations

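Of the 4 genes with 2 probes, all had probes whose ratios differed in sign on at least 1 array. On replicate 3 the probes of *COX7C* read 0.05 and −1.51, those of *ATPsynO* 0.37 and −1.35, and those of *ATPsynB* −1.42 and 0.91, while those of *ATPsynbeta* read −2.04 and −1.30.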
